A study of Homo sapiens with 8 samples.

Results

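Fc receptors let a monocyte sense antibody bound to a target. A receptor for IgG draws on an ITAM (immunoreceptor tyrosine-based activation motif), a stretch with a pair of tyrosines that sits either in the receptor's own tail or in a small partner protein called an adaptor. Src family kinases such as LYN phosphorylate those tyrosines, SYK then binds the paired phosphates, and Tec family kinases such as BTK carry the signal to phospholipase C gamma and calcium. In monocytes this chain is best known for phagocytosis of coated particles and for cytokine release.

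The 7 genes described here are the receptors FCGR1A and FCGR2A, the adaptors FCER1G and TYROBP, and the kinases SYK, LYN and BTK. They were taken by symbol from a deposited table of 11530 genes, in which all 7 are present. All 7 passed the floor on low values, which left 11257 genes to test. The RNA came from MonoMac 6, an established human cell line derived from an acute monocytic leukaemia, so every library stems from 1 line. The APRIL group holds 4 libraries of cells given human APRIL at 100 ng/mL for 24 h in RPMI free of serum. APRIL is the TNF family ligand encoded by TNFSF13. The control group holds 4 libraries of cells without APRIL, whose serum content at that step is not stated. Before that step the line was kept in RPMI with antibiotics and 10% serum. By the series description, cells with and without APRIL both had baseline cytokines, which are not named. A possible difference in serum therefore cannot be told apart from APRIL itself. The labels do not say that the libraries came from separate cultures, so the p-values reflect variation among these libraries, which is possibly only technical. Each library goes by its group and its place in the table, since the headers give it no number.

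The values are log2 values scaled between libraries by the authors, with a different divisor for each gene, so levels are compared between libraries within a gene and never between genes. A difference is APRIL minus control on this log2 scale, with its standard error from limma over 4 libraries a group. Reads recovered from the values came to between 865219 and 4991222 in the APRIL libraries and between 1289389 and 2769169 in the control libraries. APRIL column 3 was the shallowest and stood apart from the rest: it was the highest or the lowest of the 8 libraries in 66.5% of the genes tested. Differences also followed transcript length and GC content (Spearman rho -0.54 with length and 0.51 with GC content, over 10791 genes). Of 5 length classes with near equal numbers of genes, the shortest (up to 2073 bases) had a median difference of 0.27 and the longest (from 5867 bases) -0.23. Values with each library's trend in length and GC content removed are therefore given beside the members' results and those of the list genes named, and so are values without APRIL column 3.

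The motif that defines the family can be read in the coding sequence of the members that carry it. A search of the GENCODE 29 coding sequences (GRCh38) for a pair of boxes, each a tyrosine codon and, after any 2 residues, a leucine or isoleucine codon, set 6 to 12 residues apart, found 1 match in each of the 3 genes below and 0 in FCGR1A, SYK, LYN and BTK. Capitals mark the tyrosine codons and the leucine codons.
FCER1G: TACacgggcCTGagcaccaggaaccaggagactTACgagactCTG
TYROBP: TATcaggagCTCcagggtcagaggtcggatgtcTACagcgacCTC
FCGR2A: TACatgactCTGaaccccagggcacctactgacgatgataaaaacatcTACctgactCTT
The boxes of both adaptors lie 7 residues apart, and those of FCGR2A lie 12 residues apart. FCGR1A, the high-affinity IgG receptor CD64, has no such match and is known to signal through the FCER1G chain. FCGR2A, the low-affinity IgG receptor CD32a, carries its own motif. TYROBP, also called DAP12, is the adaptor of receptors such as TREM1, CLEC5A and SIRPB1 rather than of an IgG receptor.

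None of the 7 genes passed limma's threshold of 0.05 on the adjusted p, and neither did any other gene, the smallest adjusted p being 0.400. The call rate was 0% (0 of 11257 genes), with 1344 genes (11.9%) at an unadjusted p under 0.05. Voom on the recovered reads also called 0 genes, and limma with library quality weights called 4, none of them among the 7. These weights were 5.46, 1.33, 0.117 and 1.09 for APRIL columns 1 to 4. For control columns 1 to 4 they were 0.316, 1.03, 1.56 and 2.12. Weighted results therefore lean on APRIL column 1. Of the 7 genes, 2 were under that unadjusted level, FCGR2A and TYROBP, both higher in APRIL, where 6.25% of all genes tested were under it and higher. The same pair had 4 APRIL values wholly above the 4 control values, as did 3.62% of all genes tested. None of the 7 was under the unadjusted level and lower (5.69% of all genes tested), and none lay wholly below control (4.19%). The members, and the lists further below, were chosen with earlier results of these data known. Their counts beside these shares are therefore a description and not a test. The 4 receptors and adaptors had positive differences and the 3 kinases negative ones, with a median of 0.21 over the 7 against -0.0053 over all genes. Without APRIL column 3 that median was 0.071, and with the length and GC trends removed it was 0.014. In bulk RNA such as this, fewer cells of a type and less RNA per cell cannot be told apart.

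**Figure D1:**
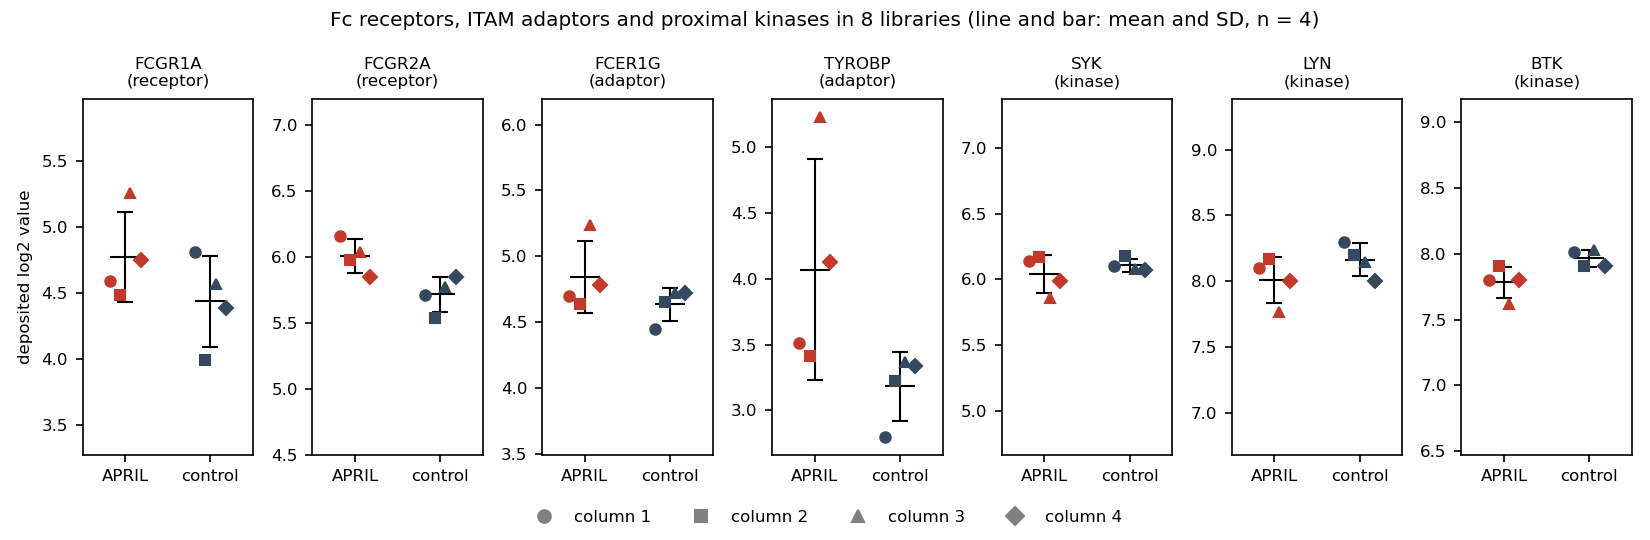
Deposited log2 value (vertical axis, spanning the same number of log2 units in every panel) of each of the 7 genes in the 4 APRIL and the 4 control libraries, with the mean and SD of each group; marker shapes give the column in the table. FCGR2A and TYROBP are the genes whose APRIL points all lie above their control points, and APRIL column 3 is the highest point for FCGR1A, FCER1G and TYROBP and the lowest for SYK, LYN and BTK.

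FCGR1A had log2 values of 4.59, 4.49, 5.26 and 4.75 in APRIL (columns 1 to 4), against 4.81, 3.99, 4.57 and 4.39 in control. The groups overlapped, with APRIL column 3 highest and control column 2 lowest of the 8. The means were 4.77 ± 0.34 in APRIL and 4.44 ± 0.35 in control (SD, n = 4 each). The difference was 0.33 ± 0.22 (95% interval -0.16 to 0.82; limma adjusted p = 0.452). Without APRIL column 3 it was 0.17, and with length and GC trends removed it was 0.31. It was 0.21 with library quality weights and 0.21 with voom on the recovered reads. These values rest on 21 to 80 reads per library in APRIL and 14 to 41 in control. Counting alone gives an SD of 0.23 in APRIL and 0.28 in control, which is a large part of the spread seen within each group.

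FCGR2A had log2 values of 6.16, 5.98, 6.04 and 5.85 in APRIL (columns 1 to 4), against 5.71, 5.54, 5.77 and 5.85 in control. Every APRIL value exceeded every control value, by a margin of 0.0009 between APRIL column 4 and control column 4. The means were 6.01 ± 0.13 in APRIL and 5.72 ± 0.13 in control (SD, n = 4 each). The difference was 0.29 ± 0.13 (95% interval 0.01 to 0.58), with a limma unadjusted p of 0.0462 and an adjusted p of 0.400. An exact two-sided permutation test gave p = 0.0286, the smallest that 4 against 4 libraries allow. The difference kept its size, at 0.28 without APRIL column 3 and 0.29 with length and GC trends removed. It was 0.34 with library quality weights, which lean on APRIL column 1, where FCGR2A was highest. Reads ran from 33 to 205 per library in APRIL and from 38 to 103 in control. The SD within each group was no larger than the counting SD of 0.16 in APRIL and 0.19 in control. The longest transcripts of FCGR1A and FCGR2A have 2180 and 2412 bases, in the length class of 2074 to 3066 bases, whose median difference was 0.11.

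Reads of both receptors can be shared with close copies, and how the authors counted such reads is not given in the sources used here. By alignment, the longest stretch of FCGR1A that aligned to FCGR1B was 99.1% identical over 895 bases. FCGR2A was 95.1% identical to FCGR2B over 667 bases and 91.7% identical to FCGR2C over 1101 bases. FCGR1B had log2 values of 0.38, 0.26, 1.38 and 0.64 in APRIL and 0.09, -0.72, 0.02 and -0.08 in control. Its APRIL values lay wholly above, at a difference of 0.84 ± 0.30 on 5 to 42 reads per library (limma adjusted p = 0.400). It was 0.60 without APRIL column 3 and 0.73 with trends removed. FCGR1C differed by -0.15 ± 0.32, which was 0.056 without APRIL column 3 and -0.35 with trends removed. FCGR2B, an inhibitory IgG receptor, differed by -0.07 ± 0.27, which was -0.011 and -0.00068 under the same settings. The split of reads between FCGR1A and FCGR1B is uncertain, and their differences had the same sign. The difference of FCGR1C, which was not aligned here, had the opposite sign as deposited.

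Both receptor genes lie on chromosome 1 (GRCh38), FCGR1A at 149782671 to 149792518 and FCGR2A at 161505430 to 161524013, on the plus strand. Their promoters share a run of 20 bases, and the 100 bases around it are shown because no other of the 35116 RefSeq promoter windows holds that run. The windows are chr1:149782584-149782683 for FCGR1A and chr1:161505347-161505446 for FCGR2A, on the plus strand of GRCh38.p14. Capitals mark GAGGAA in its reverse complement in both and TTCNNNGAA in FCGR1A.
FCGR1A: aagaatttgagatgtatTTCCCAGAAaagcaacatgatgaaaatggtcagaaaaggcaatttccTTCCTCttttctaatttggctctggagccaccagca
FCGR2A: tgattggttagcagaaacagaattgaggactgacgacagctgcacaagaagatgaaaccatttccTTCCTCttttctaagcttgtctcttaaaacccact
shared run: atttccttcctcttttctaa
The run lies 52 to 33 bases before the RefSeq start of FCGR1A and 51 to 32 bases before that of FCGR2A. In both genes the RefSeq start lies downstream of the GENCODE gene start given above. GAGGAA, the core bound by ETS factors such as PU.1, was searched on both strands and occurs in 27.9% of all promoter windows of 300 bases. TTCNNNGAA, the palindrome bound by STAT factors, occurs in 7.66% of them. A match of either motif is a description of the sequence and not a binding site. In the TYROBP window GAGGAA occurs 2 times, and in the FCER1G window it occurs 0 times.

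FCER1G, the common gamma chain of the Fc receptors, had log2 values of 4.70, 4.64, 5.24 and 4.78 in APRIL (columns 1 to 4), against 4.45, 4.65, 4.72 and 4.72 in control. The groups overlapped, and APRIL column 3 stood highest. The means were 4.84 ± 0.28 in APRIL and 4.63 ± 0.13 in control (SD, n = 4 each). The difference was 0.21 ± 0.16 (95% interval -0.15 to 0.56; limma adjusted p = 0.505). It was 0.071 without APRIL column 3 and -0.079 with length and GC trends removed, so its sign turned. It was 0.019 with library quality weights and 0.0092 without both APRIL column 3 and control column 1. FCER1G has a longest transcript of 591 bases and falls in the shortest length class, whose median difference was 0.27. It rests on 124 to 519 reads per library in APRIL and 134 to 303 in control, with a counting SD of 0.09 and 0.11.

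TYROBP had log2 values of 3.51, 3.41, 5.23 and 4.13 in APRIL (columns 1 to 4), against 2.80, 3.22, 3.37 and 3.34 in control. All 4 APRIL values lay above all 4 control values, by a margin of 0.0414, with APRIL columns 3 and 4 well above columns 1 and 2. The means were 4.07 ± 0.83 in APRIL and 3.18 ± 0.26 in control (SD, n = 4 each). The difference was 0.89 ± 0.36 (95% interval 0.09 to 1.69), with a limma unadjusted p of 0.0325, an adjusted p of 0.400 and an exact permutation p of 0.0286. It was the largest difference of the 7 genes, and it also covered the widest range under other processing. It was 0.50 without APRIL column 3, 0.34 with length and GC trends removed, 0.32 with library quality weights and 0.66 with voom on the recovered reads. TYROBP has a longest transcript of 620 bases, also in the shortest class, and at 58.4% its GC content is the highest of the 7. The reads behind it were 39, 69, 38 and 67 in APRIL and 17, 15, 23 and 36 in control. Its SD of 0.83 in APRIL exceeded the counting SD of 0.20 there, while the SD of 0.26 in control did not exceed the counting SD of 0.32.

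**Figure D2:**
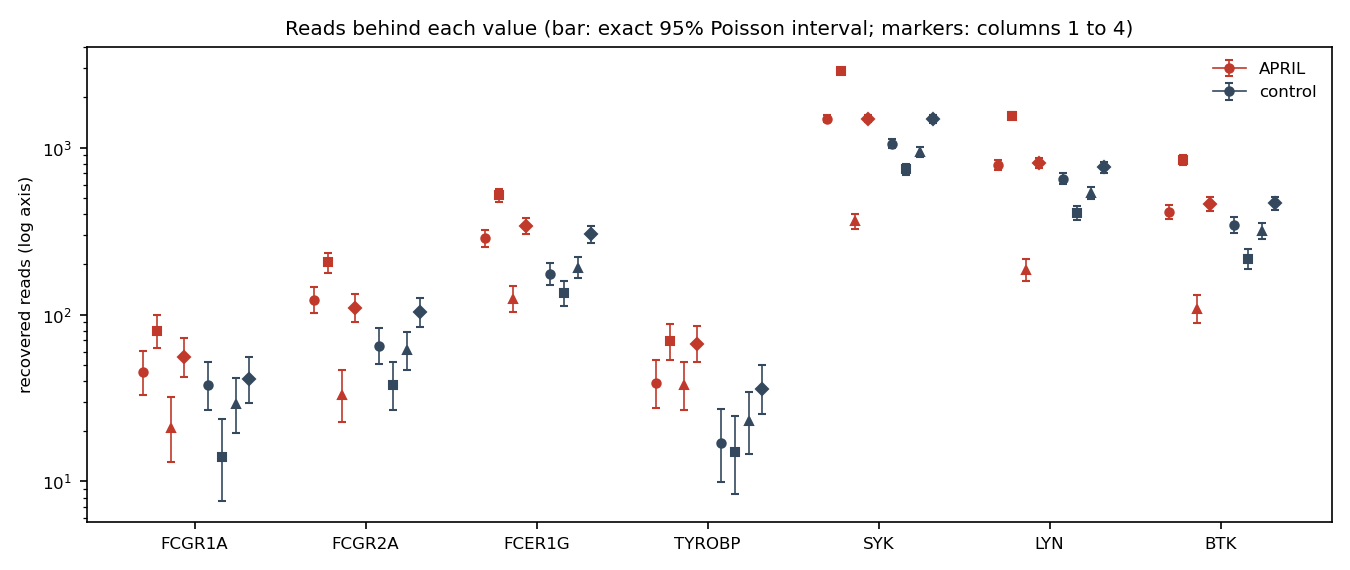
Recovered reads (vertical log axis) behind each value of the 7 genes in the APRIL libraries (red) and control libraries (blue), with exact 95% Poisson intervals that cover counting error only. TYROBP and FCGR1A rest on 14 to 80 reads per library, SYK on 363 to 2868.

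SYK had log2 values of 6.14, 6.17, 5.86 and 5.99 in APRIL (columns 1 to 4), against 6.10, 6.18, 6.08 and 6.07 in control. The groups overlapped, with 2 APRIL values above and 2 below the control mean. The means were 6.04 ± 0.14 in APRIL and 6.11 ± 0.05 in control (SD, n = 4 each), and the difference was -0.07 ± 0.12 (95% interval -0.34 to 0.20; limma adjusted p = 0.757). SYK is the deepest of the 7, at 363 to 2868 reads per library in APRIL and 741 to 1484 in control, with a counting SD of 0.05 in each group. Without APRIL column 3 the difference was -0.011. It was 0.0081 with length and GC trends removed and 0.02 with library quality weights, so its sign turned.

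LYN had log2 values of 8.10, 8.17, 7.77 and 8.0 in APRIL (columns 1 to 4), against 8.30, 8.20, 8.15 and 8.0 in control. APRIL column 3 was the lowest and the groups overlapped. The means were 8.01 ± 0.17 in APRIL and 8.16 ± 0.12 in control (SD, n = 4 each), a difference of -0.15 ± 0.13 (95% interval -0.44 to 0.13; limma adjusted p = 0.526). LYN phosphorylates inhibitory motifs as well as ITAMs. Its difference was -0.073 without APRIL column 3, -0.014 with library quality weights and 0.014 with length and GC trends removed, so its sign turned. The longest transcripts of SYK and LYN have 5005 and 5808 bases and fall in the class of 4254 to 5866 bases, whose median difference was -0.10.

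BTK, the gene of X-linked agammaglobulinaemia, had log2 values of 7.80, 7.91, 7.62 and 7.80 in APRIL (columns 1 to 4), against 8.01, 7.91, 8.03 and 7.91 in control. Of the 4 APRIL values, 3 lay below every control value and all 4 lay below the control mean. The means were 7.79 ± 0.12 in APRIL and 7.97 ± 0.06 in control (SD, n = 4 each). The difference was -0.18 ± 0.11 (95% interval -0.43 to 0.07), with a limma unadjusted p of 0.135, an adjusted p of 0.430 and an exact permutation p of 0.0857. It was -0.18 with length and GC trends removed, -0.13 without APRIL column 3 and -0.11 without both APRIL column 3 and control column 1. Its longest transcript has 2767 bases and lies in the class of 2074 to 3066 bases, whose median difference was 0.11, of the opposite sign. In the authors' deposited table BTK has an unadjusted p of 0.0368 and a linear fold of 0.883, and FCGR2A a p of 0.0198 and a fold of 1.22. In the authors' deposited table TYROBP has a p of 0.0883 and a fold of 1.85. At an unadjusted level of 0.05 the authors' p and that of limma therefore differ for BTK and for TYROBP.

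Receptors, adaptors and kinases were also followed library by library, as the mean deviation of each gene from its own mean over the 8 libraries. In APRIL column 3 these deviations were 0.41 for the receptors, 1.05 for the adaptors and -0.26 for the kinases. With length and GC trends removed, they were 0.28, 0.18 and -0.11 in the same order. Control column 1 had the reverse pattern for adaptors and kinases, at -0.56 and 0.12, and at -0.21 and 0.05 with trends removed. The receptors instead were lowest in control column 2, at -0.47, and were still at -0.40 there with trends removed. APRIL column 3 was the highest of 8 in 3 members and the lowest in 3, where it was highest in 33.6% and lowest in 32.9% of all genes tested.

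**Figure D3:**
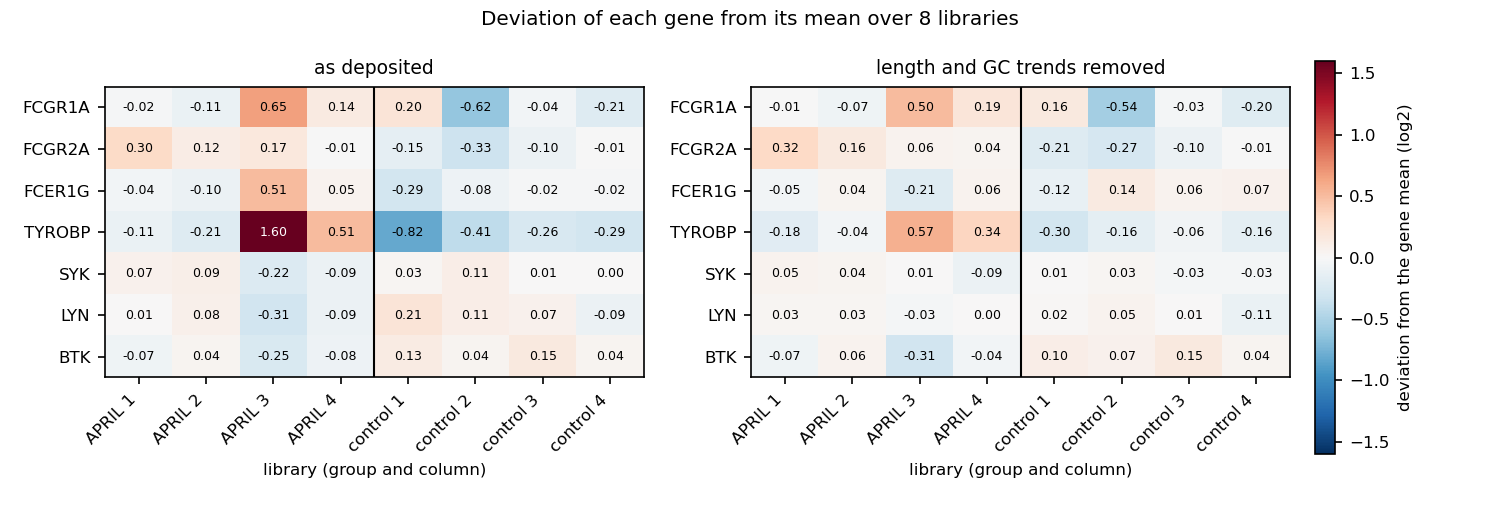
Deviation of each gene (rows) from its own mean over the 8 libraries (columns; APRIL left of the line, control right), in log2 units, as deposited and with each library's trend in length and GC content removed. TYROBP deviates by 1.60 in APRIL column 3 as deposited and by 0.57 with trends removed, and FCER1G by 0.51 and -0.21.

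**Figure D4:**
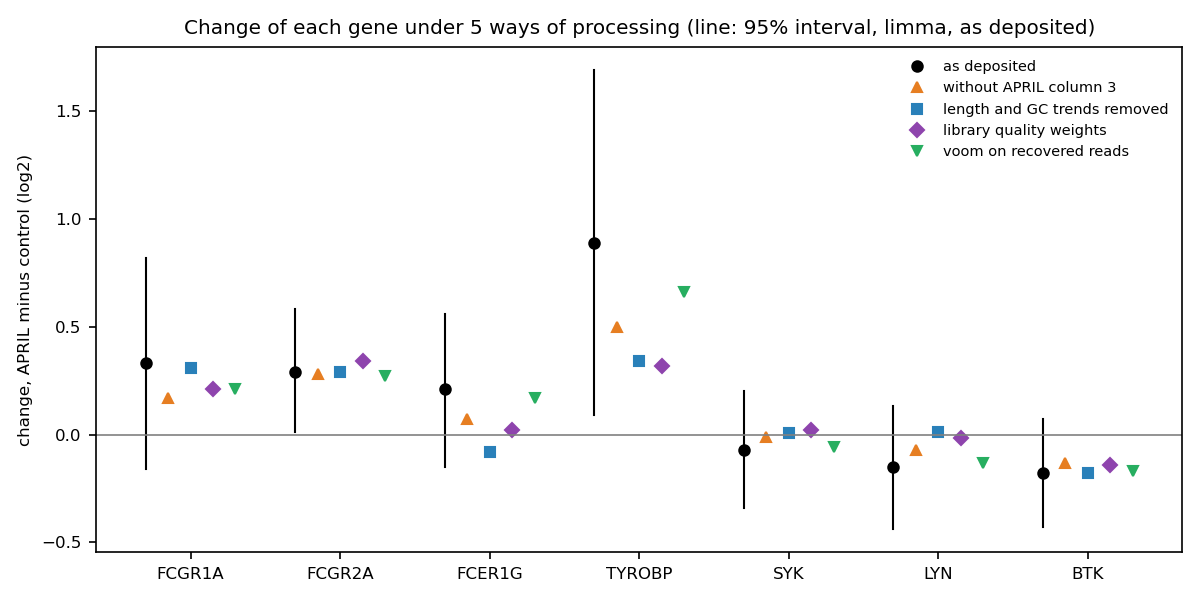
Difference, APRIL minus control (log2), of each gene as deposited with its 95% interval from limma (black), and under 4 other ways of processing. FCGR2A stays between 0.23 and 0.34 without any single library, while TYROBP is 0.89 as deposited and 0.34 with trends removed.

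Whether an adaptor moved apart from a receptor, or a kinase from SYK, was compared in 5 pairs by the log2 difference of the pair within each library. FCER1G minus FCGR1A averaged 0.07 ± 0.07 in APRIL and 0.19 ± 0.43 in control (SD, n = 4 each), a difference of -0.13 (exact permutation p = 0.600, adjusted over the 5 pairs 0.629). FCER1G minus FCGR2A differed by -0.09 (exact permutation p = 0.629, adjusted 0.629). With length and GC trends removed these differences were -0.39 and -0.37 (exact permutation, adjusted p = 0.321 and 0.143). Without APRIL column 3 they were -0.097 and -0.21. Neither comparison of the gamma chain with an IgG receptor passed the threshold under these settings. The smallest exact p that 4 against 4 libraries allow is 0.0286. Adjusted over the 5 pairs, a single pair at that p cannot pass 0.05. These adjusted p-values therefore cannot decide whether an individual pair moved apart. TYROBP minus SYK averaged -1.97 ± 0.98 in APRIL and -2.93 ± 0.27 in control, a difference of 0.96 (exact permutation p = 0.0857, adjusted 0.357). That difference was 0.51 without APRIL column 3 and 0.34 with trends removed. LYN minus SYK and BTK minus SYK differed by -0.08 and -0.11 (exact permutation p = 0.229 and 0.143, adjusted 0.381 and 0.357). With trends removed they differed by 0.0059 and -0.19. The SD of LYN minus SYK was 0.04 in APRIL, where LYN alone had an SD of 0.17 and SYK alone 0.14. In control it was 0.11, where LYN alone had an SD of 0.12 and SYK alone 0.05.

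Among Fc receptors, 9 of 15 listed genes were tested, 7 with a positive and 2 with a negative difference and a median of 0.29. None passed the adjusted threshold, and 3 were at an unadjusted p under 0.05 and higher, FCGR1B, FCGR2A and FCGRT, against 6.25% of all genes tested. FCGR2A is itself a member, and FCGR1B can share reads with FCGR1A. FCGRT, the neonatal Fc receptor that recycles IgG, had log2 values of 8.52, 8.28, 9.46 and 8.68 in APRIL and 7.70, 8.28, 8.01 and 8.24 in control. Its difference of 0.67 ± 0.24 (limma adjusted p = 0.400) was 0.43 without APRIL column 3 and 0.39 with trends removed. FCAR, the IgA receptor, differed by 0.42 ± 0.26, which was 0.24 without APRIL column 3 and 0.27 with trends removed. The list's median was 0.17 without APRIL column 3 and 0.27 with trends removed.

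Of the adaptors and their partner receptors, 9 of 32 listed genes were tested, 6 with a positive and 3 with a negative difference. TYROBP was the only gene of the list at an unadjusted p under 0.05, against 11.9% of all genes tested. The median was 0.052, 0.071 without APRIL column 3 and -0.13 with trends removed. CD79A, the B cell receptor's signalling chain, had APRIL values wholly above control, as did TYROBP and 3.62% of all genes tested. The difference of CD79A was 0.26 ± 0.17, which was 0.28 without APRIL column 3 and -0.19 with trends removed. LILRA2, an activating receptor that pairs with FCER1G, differed by 0.29 ± 0.23, which was 0.37 and 0.36 under the same settings. Of TYROBP's partners, CLEC5A differed by 0.05 ± 0.21, which was 0.20 without APRIL column 3 and 0.16 with trends removed. SIRPB1 differed by -0.14 ± 0.17, which was -0.042 and -0.13. TREM1 and TREM2 are not among the rows used here, and HCST, the related adaptor DAP10, was under the floor.

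Of Src, Syk and Tec family kinases, 10 of 16 listed genes were tested, 1 with a positive and 9 with a negative difference. The median was -0.20, and none was at an unadjusted p under 0.05, against 11.9% of all genes tested. The median was -0.044 without APRIL column 3 and -0.16 with trends removed. YES1, a Src family kinase, differed by -0.33 ± 0.22, by -0.12 without APRIL column 3 and by -0.13 with trends removed.

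Further down the pathway, 45 of 50 listed signal transducers were tested, 15 with a positive and 30 with a negative difference, where 49.3% of all genes tested were positive. The median was -0.13, but -0.023 without APRIL column 3 and -0.08 with trends removed. At an unadjusted p under 0.05 stood 1 that was higher and 2 that were lower, against 6.25% and 5.69% of all genes tested, so these counts do not exceed the background. FYB, an adaptor that links SLP-76 (LCP2) to the cytoskeleton, had log2 values of 6.32, 6.19, 5.18 and 5.77 in APRIL, wholly below 6.65, 6.44, 6.97 and 6.50 in control. Its difference was -0.77 ± 0.24 (limma adjusted p = 0.400) on 4 to 57 reads per library, and -0.55 without APRIL column 3. ITPR2, a calcium release channel, differed by -0.77 ± 0.25, and ARPC1B, a subunit of the actin-branching Arp2/3 complex, by 0.49 ± 0.18. WIPF1, which binds the actin regulator WASP, lay wholly below control at -0.33 ± 0.15. With trends removed these 4 were at -0.58, -0.44, 0.15 and -0.20, and without APRIL column 3 the last 3 were at -0.61, 0.40 and -0.19.

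Of the inhibitory receptors, phosphatases and other inhibitors, 29 of 46 listed genes were tested, 13 with a positive and 16 with a negative difference and a median of -0.019. The median was -0.056 without APRIL column 3 and -0.051 with trends removed. Of these genes, 3 were higher and 2 lower at an unadjusted p under 0.05, against 6.25% and 5.69% of all genes tested. MILR1, an inhibitory receptor also called Allergin-1, had log2 values of 3.45, 3.14, 3.97 and 3.58 in APRIL, wholly above 2.77, 3.07, 2.26 and 2.87 in control. Its difference of 0.79 ± 0.23 (limma unadjusted p = 0.00574, adjusted p = 0.400) rests on 10 to 55 reads per library, and it was 0.65 without APRIL column 3 and 0.70 with trends removed. PTPN11, the phosphatase SHP2, lay wholly below control at -0.49 ± 0.18, at -0.33 without APRIL column 3 and at -0.28 with trends removed. DOK1, a docking protein that dampens kinase signals, differed by 0.49 ± 0.19, and CBL, a ubiquitin ligase that turns over SYK and receptors, by -0.58 ± 0.25. Without APRIL column 3 these were 0.34 and -0.30, and with trends removed 0.17 and -0.28.

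**Figure D5:**
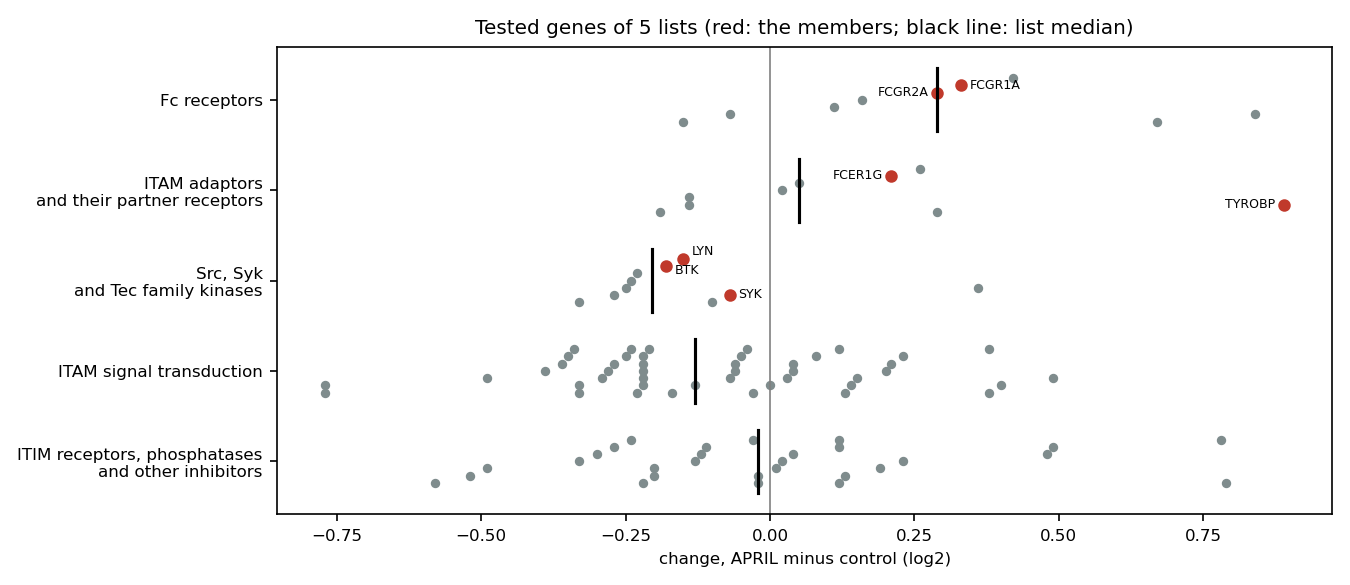
Difference, APRIL minus control (log2, horizontal axis), of each tested gene of 5 pathway lists, with the list median as a black line and the 7 genes in red. The medians are 0.29 for Fc receptors, 0.052 for adaptors and partners, -0.20 for the kinases, -0.13 for signal transducers and -0.019 for inhibitors.

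The label of a monocytic line was set against marker genes. Of 21 monocyte markers 18 are in the table, and CD68, CD4 and FCN1 are not among the rows used here. LYZ ranged over 9.37 to 9.81 in APRIL and 9.60 to 9.89 in control on the log2 scale, CD14 was recovered at 27 to 125 reads per library and CSF1R at 5 to 39. Of the 18, 13 had a positive and 5 a negative difference, and 3 were at an unadjusted p under 0.05 and higher, against 6.25% of all genes tested. These 3 were the granule protease genes ELANE (0.73 ± 0.25) and PRTN3 (0.58 ± 0.24) and the granule protein gene AZU1 (0.49 ± 0.21), each with a limma adjusted p of 0.400. Without APRIL column 3 they were at 0.50, 0.40 and 0.28, and with trends removed at 0.064, -0.066 and 0.057. CD14 differed by 0.60 ± 0.30, LYZ by -0.14 ± 0.13 and CSF1R by -0.13 ± 0.21, which were 0.32, -0.15 and -0.21 with trends removed. In the same order, they were 0.44, -0.22 and -0.18 without APRIL column 3. CD33 differed by 0.02 ± 0.13, ITGAM by 0.13 ± 0.31 and SPI1 by 0.21 ± 0.16, which were 0.14, 0.15 and -0.32 with trends removed. Without APRIL column 3 they were 0.049, 0.30 and 0.22. CD163 had the most negative difference of the list, -0.45 ± 0.23, which was -0.22 without APRIL column 3 and -0.29 with trends removed. The median of the list was 0.18, 0.13 without APRIL column 3 and -0.0099 with trends removed. The summed linear value of the 18 markers ran from 26161 to 29685 in APRIL and from 18593 to 26556 in control, and most of it was ITGB2. Since each gene has its own divisor, this sum and those below weight the genes unequally and serve only to set libraries side by side.

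Markers of other cells that use these receptors were also counted. Of 9 mast cell and basophil markers 3 are in the table (TPSAB1, TPSB2 and GATA2), with a sum of 81.1 to 138 in APRIL and 58.4 to 102 in control. The defining FCER1A and MS4A2 are not among the rows used here. Of 17 T and NK cell markers 3 are in the table, with a sum of 1870 to 4699 in APRIL and 1733 to 1964 in control that is almost wholly NKG7. Of 15 B cell markers 9 are in the table, with a sum of 174 to 245 in APRIL and 167 to 207 in control. Of 11 neutrophil markers 1 is in the table (CXCR2), and of 11 platelet and erythroid markers 0 are. By the labels all libraries are of the same monocytic line, and the source of these transcripts was not tested.

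The genes whose pattern over the 8 libraries was most like each member were found by the root mean square of the difference between their deviations from the gene mean. For FCGR1A these were CHMP2B (0.078) and MAP2K6 (0.090), against 0.340 for the deviation of FCGR1A itself. For FCGR2A they were GMDS (0.095) and GNG2 (0.099), against 0.185. FCER1G was closest to GMPR2 (0.037) and PARK7 (0.040), and TYROBP to ARL2 (0.099) and RPL18AP3 (0.108), against deviations of 0.212 and 0.696. SYK was closest to EIF4HP1 (0.040) and NOP14 (0.041), LYN to MLEC (0.043) and XPO5 (0.044), and BTK to DDX17 (0.031) and CSNK2A3 (0.031). RPL18AP3 and EIF4HP1 are pseudogenes, and the reads assigned to them cannot be told apart from those of their parent genes here. No member was among the 2 closest genes of another member. With only 2 of all genes tested kept for each, this cannot show whether the members vary together.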

How the data were processed

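RNA of 8 MonoMac 6 libraries (4 APRIL, 4 control) was sequenced after a TruSeq RNA v2 preparation, per the labels' protocols; that kit does not mark strand, so reads of overlapping antisense genes cannot be told apart. Per the file headers, the authors deposited log2 values scaled by TMM factors, with a fold and a p-value for each gene. TopHat2 2.0.13, bcl2fastq and the build hg19 stand in the submitters' processing notes; the read counter is not given in the sources used here, nor is the gene annotation. No deposited p-value exists for 4 genes, and 11 symbols had turned into dates.

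Differences were tested with limma 3.58.1 in R 4.3.3 (intensity trend, robust, two-sided, Benjamini-Hochberg over 11257 genes). The floor was 4 libraries with a linear value of at least 1, which left out 273 genes. Data were simulated for APRIL against control over 11257 genes, with 200 of them changed. There this fit recovered 63% of changes of 1 and 92% of changes of 2 log2 units, with 4.32% of calls false. These rates apply to the simulated noise only. In the real libraries, differences followed transcript length and GC content, and 1 APRIL library stood apart from the rest. The share of real changes that this fit would find was therefore not measured. Single values and pairs were also tested by exact permutation over 70 relabelings.

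Reads were recovered where a gene's 8 values were log2 of whole reads plus 0.5 over a whole divisor plus a constant per library. This held for 11027 of 11530 genes (95.6%), and for 0 of 500 with the constants moved. Poisson intervals (95%) cover counting error only, since reads without molecular identifiers are not independent molecules.

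Length and GC trends were removed per library by a quadratic in log2 length and GC content of the longest GENCODE 29 transcript, over 10791 genes. Promoters and their coordinates come from RefSeq (GRCh38.p14), and gene positions and coding sequences from GENCODE 29 (GRCh38), neither of them in the build of the deposited values.

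The members and lists were chosen with earlier results of these data known. Named genes are the members, the 4 genes of smallest p in each pathway list, the 2 genes of most similar pattern to each member and 7 monocyte markers; FCGR1C, FCGR2B, CLEC5A, SIRPB1, HCST, CD163, ITGB2, the granule genes and markers of other cells are named beside these as copies, partners or list members. A gene that this rule names among the kinases is not reported here. Alternatives were no trend, no filter or a stricter one, a pseudocount of 1, median centring, library quality weights, trend removal, voom on recovered reads, and leaving out libraries. Plots were made with matplotlib 3.10.9, and other steps with scipy 1.17.1, pandas 2.3.3 and numpy 2.4.6 in Python 3.11.15.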

Additional observations from a re-analysis of the deposited data

Results flagged for a closer look

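Among the 64 groups of 4 values looked at (the 7 members, the pathway genes of smallest p, the Fc receptors and the defining monocyte markers, each in APRIL and in control), 3 held a library far from the other 3, where chance gives about 5% of groups. CD79A was at 2.28 on the log2 scale in APRIL column 4, against 1.81 to 1.88 in the other APRIL libraries. LILRA2 was at 1.34 in APRIL column 3, against 1.67 to 1.68. WIPF1 was at 7.56 in APRIL column 3, against 8.08 to 8.17. None of the 7 members had such a library in either group.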

How the results depend on the processing

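No member passed the adjusted threshold under any alternative run. Omitting the trend, either other filter and the exact test leave a member's difference as it is by construction. Of the alternatives that can move it, trend removal and library quality weights turned a sign, in 4 cases. FCER1G was -0.079, SYK 0.0081 and LYN 0.014 with length and GC trends removed. SYK was 0.02 with library quality weights. With those weights limma called 4 genes of all tested. Leaving out 1 library at a time gave 0.17 to 0.45 for FCGR1A, 0.23 to 0.34 for FCGR2A, 0.071 to 0.27 for FCER1G, 0.50 to 1.11 for TYROBP, -0.12 to -0.011 for SYK, -0.21 to -0.073 for LYN and -0.22 to -0.13 for BTK.

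The median of the 7 was 0.02 with weights, 0.014 with trends removed, 0.0092 without APRIL column 3 and control column 1, and 0.071 to 0.27 without any single library. The Fc receptor median was 0.21 with weights and 0.21 with voom, and 0.17 to 0.34 without a library. The adaptor list was at -0.13 with trends removed and at -0.017 to 0.14 without a library. The kinase list was at -0.033 with weights, -0.021 without APRIL column 3 and control column 1, and -0.27 to -0.044 without a library. Signal transducers ran from -0.19 to -0.023 and inhibitors from -0.056 to -0.017 without a library. With trends removed FCER1G minus FCGR1A was -0.39, FCER1G minus FCGR2A -0.37, LYN minus SYK 0.0059 and BTK minus SYK -0.19. Without a library FCER1G minus FCGR1A ran from -0.31 to 0.032, FCER1G minus FCGR2A from -0.21 to 0.013, TYROBP minus SYK from 0.51 to 1.22, LYN minus SYK from -0.12 to -0.032 and BTK minus SYK from -0.15 to -0.078. The causes of these shifts were not tested.

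The 1344 genes at an unadjusted p under 0.05 became 507 without control column 1, 670 without APRIL column 4, 813 without control column 3, 2247 without APRIL column 2, 846 without APRIL column 3 and control column 1, and 861 with trends removed. No paired analysis was possible because the column headers carry no replicate number. Depth limits FCGR1A and TYROBP most, at 14 and 15 reads in their lowest library.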
